A study of Sus scrofa with 26 samples.

Results

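The swine leukocyte antigen (SLA) genes form the major histocompatibility complex (MHC) of the pig. They were followed here, with 4 genes that work directly with them, in the subcutaneous adipose tissue (SCAT) of 3 pig breeds kept in a temperate or a hot room. A probe was taken when the name, the description or the accessions that the array files give it pointed to a gene whose symbol begins with SLA-, or to B2M, TAP1, TAP2 or CD74, and every probe was kept apart. This gave 19 genes and 87 probes, out of 11575 named genes and 60305 probes on the array. The 7 class I heavy chain genes had 25 probes, the class I partners B2M, TAP1 and TAP2 had 21, the 8 class II chain genes had 37, and the class II partner CD74 had 4. A total of 84 of the 87 probes passed the filter on dim probes and were tested.

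Each of the 26 samples was the back fat of 1 castrated male pig, hybridised alone to a one-colour array. The breeds were Creole (8 pigs), a local breed of the Caribbean, Large White (LW, 9 pigs) and their F1 cross (9 pigs). Under the thermoneutral condition (TN) the labels give a room temperature of 24 °C, and 3 Creole, 4 F1 and 4 LW pigs were sampled. Under heat stress (HS) the labels give 30 °C, but the series describes 5 days at 32 °C (the study's methods name 4 or 5 days), and 5 pigs of each breed were sampled. The pigs were 11 weeks old when they entered the trial. According to the study's methods the TN pigs were slaughtered before the temperature was raised, so that temperature cannot be told apart from the day of slaughter and age. The same methods name pens, shared parents and blocks of 4 littermates, with 3 blocks for each breed, none of which the labels give. The tests therefore treated pigs as independent, although those of a breed came from few litters. The relatedness of the pigs of a group was not tested. Between 68.5% and 76.6% of the spots were well above background on each array and no spot was saturated. The number of arrays, and not a read depth, limits the precision.

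MHC class I molecules sit on nearly all nucleated cells and present peptides from inside the cell to cytotoxic T cells. Each consists of a heavy chain and beta-2-microglobulin, and TAP1 and TAP2 pump the peptides into the endoplasmic reticulum, where the molecule is loaded. MHC class II molecules are pairs of an alpha and a beta chain on macrophages, dendritic cells and B cells, and they present peptides taken up from outside to helper T cells. CD74, the invariant chain, blocks the class II groove until the molecule reaches the endosome. The classical MHC genes are among the most variable genes between individuals of a species. Adipose tissue holds adipocytes, resident macrophages, lymphocytes and vessels, and adipocytes themselves carry class I and can carry class II molecules.

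An array probe reads a single stretch of 60 bases. Some of them are printed here to show how probes of the same or closely related genes differ from each other. Capitals mark bases at which a probe differs from its partner over the stretch that they share, found without gaps on the same strand. The first pair stands for SLA-1 and SLA-3, classical class I genes, and the probes share 59 positions, of which 4 differ.
SLA-1 A_72_P440391: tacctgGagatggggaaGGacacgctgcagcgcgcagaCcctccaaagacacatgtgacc
SLA-3 A_72_P440386: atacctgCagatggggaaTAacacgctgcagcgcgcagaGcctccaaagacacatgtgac
The next pair shows the SLA-5 probe with the largest spread between pigs beside an SLA-8 probe, with 13 differences over 54 positions.
SLA-5 A_72_P414498: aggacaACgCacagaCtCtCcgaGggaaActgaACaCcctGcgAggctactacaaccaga
SLA-8 A_72_P517672: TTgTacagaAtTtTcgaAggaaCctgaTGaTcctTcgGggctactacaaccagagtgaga
These SLA-8 probes differ at 1 of 58 shared positions.
SLA-8 A_72_P734731: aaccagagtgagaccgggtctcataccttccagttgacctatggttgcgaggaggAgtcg
SLA-8 A_72_P541846: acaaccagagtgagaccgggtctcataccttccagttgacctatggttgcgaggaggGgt
For the class II alpha chain gene SLA-DQA, the following probes differ at 5 of 59 shared positions.
SLA-DQA A_72_P743257: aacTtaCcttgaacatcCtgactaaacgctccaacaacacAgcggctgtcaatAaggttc
SLA-DQA A_72_P763148: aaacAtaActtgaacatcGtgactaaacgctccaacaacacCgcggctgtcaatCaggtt
Another pair of SLA-DQA probes, both lower in LW than in Creole pigs, overlaps by 30 bases with no difference.
SLA-DQA A_72_P746609: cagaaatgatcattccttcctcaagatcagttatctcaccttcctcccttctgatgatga
SLA-DQA A_72_P750437: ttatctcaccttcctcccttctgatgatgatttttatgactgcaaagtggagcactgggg
The last sequence is the SLA-3 probe whose signal differed between breeds and, within the Creole breed, between temperatures.
SLA-3 A_72_P517623: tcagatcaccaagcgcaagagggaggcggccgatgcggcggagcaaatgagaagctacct
The alleles that each pig carried were not measured here, so a difference in the amount of transcript and a difference in how well it matched a probe cannot be told apart.

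Names need care in this family. A total of 76 probes took their gene from the gene name in the array files, 8 from the description and 3 from the accessions. Both SLA-DOA probes carry the name of the Src-like adaptor gene (SLA) in the files, whereas their accession belongs to SLA-DOA, and they were kept under that gene. One SLA-1 probe, CUST_238_PI427286967, is described in the files as another gene. It differs at 1 of 58 shared positions from CUST_30_PI427286967, the brightest SLA-1 probe (r = 0.88 within groups). The doubt about its gene therefore also covers that probe, on which the SLA-1 levels and differences below rest. The accessions of SLA-3 probe A_72_P683231 list SLA-2 and SLA-5 as well, those of SLA-3 probe A_72_P440386 also list SLA-2, and signal from these near-identical genes can be shared. The SLA-DQA group joins the symbols SLA-DQA and SLA-DQA1.

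SCAT gave strong signals for most of the pathway. On the log2 scale of normalized intensity, the brightest SLA-1 probe (CUST_30_PI427286967, classical class I) stood at 17.20 to 17.81 over the 26 pigs, and the brightest B2M probe (CUST_40_PI427286967) at 16.54 to 17.12. The median tested probe of the class I heavy chains had a mean of 14.50 and that of the class II chains 12.18. The probes of SLA-7 and SLA-DOB were dim, with means of 6.12 for SLA-7 (A_72_P223217, a non-classical class I gene) and 6.21 for SLA-DOB (A_72_P300459, the beta chain of the molecule that restrains class II loading in B cells). The 3 probes that did not pass the filter were 1 each of SLA-DOB, SLA-DQB1 and SLA-DRA, well above background on 2, 2 and 0 arrays. Brightness differs between probes for reasons of sequence, so these levels do not rank the genes.

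**Figure D1:**
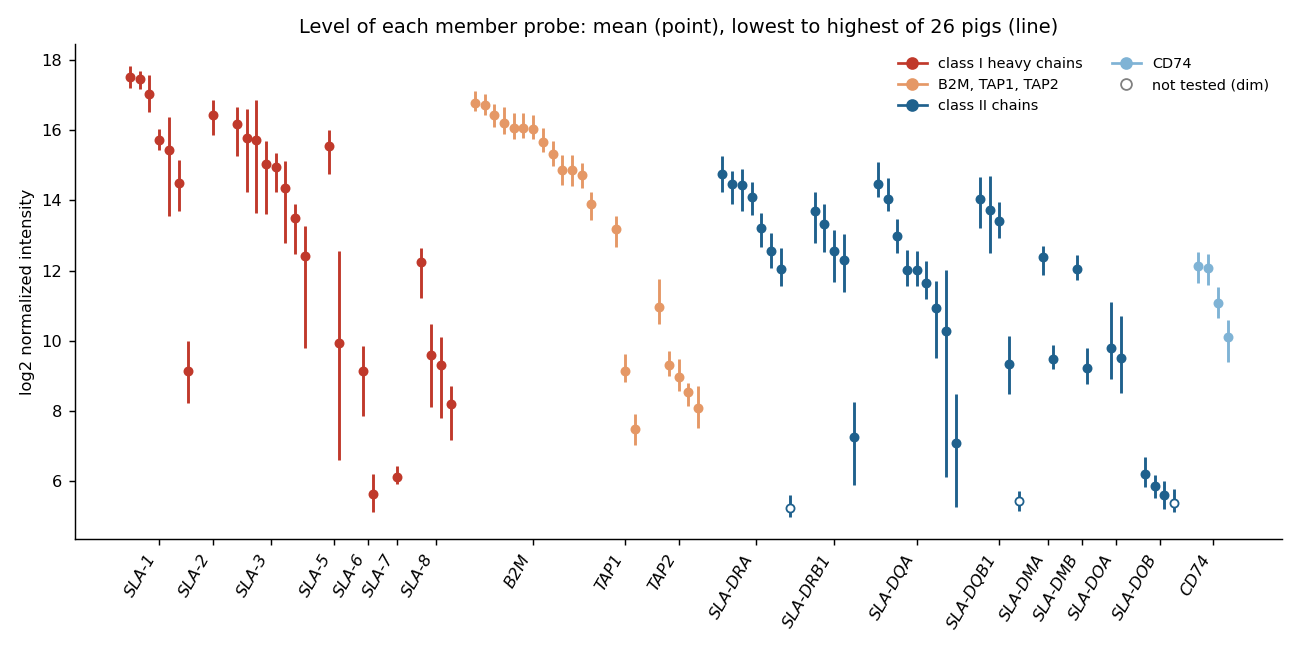
Log2 normalized intensity of the 87 probes, arranged by gene on the horizontal axis, with the mean over 26 pigs as a point, the lowest to highest pig as a line, and open points for the 3 probes not tested. Probes of a gene lie at very different heights, and the single SLA-5 line reaching from 6.61 to 12.55 is the longest, while the B2M lines are short.

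The 6 breed by temperature groups were close to each other on the brightest probe of most genes. For SLA-1 (CUST_30_PI427286967) the group means lay between 17.45 ± 0.20 (SD, n = 5) in Creole HS and 17.66 ± 0.14 (n = 5) in LW HS. Those of B2M (CUST_40_PI427286967) ran from 16.73 ± 0.08 (n = 5) in F1 HS to 16.84 ± 0.12 (n = 4) in LW TN. Adjacent groups in these orders overlapped in their ranges. For SLA-DRA (A_72_P640825), the alpha chain of the DR class II molecule, the means ran from 14.59 ± 0.07 (n = 4) in LW TN to 14.83 ± 0.24 (n = 4) in F1 TN. CD74 (A_72_P395573) ran from 11.93 ± 0.02 in LW TN to 12.26 ± 0.23 in LW HS. SLA-DMA (A_72_P025111) and SLA-DMB (A_72_P375073), the chains of the molecule that edits the peptides of class II, had group means of 12.23 ± 0.12 to 12.49 ± 0.19 and of 11.94 ± 0.07 to 12.13 ± 0.21.

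The first comparison asked whether the pathway responded to some days of heat. None of the 84 tested probes passed an adjusted p-value of 0.05 for HS minus TN over the 3 breeds, against 12.2% of all 44702 tested probes (limma, Benjamini-Hochberg adjustment over all of them). At an unadjusted p-value under 0.05 there was 1 member probe, or 1.19%, against 26.9% of all probes. The estimates lay between -0.43 and 0.20 on the log2 scale, with a median of 0.01, and 45 of the 84 were above 0.

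The probe with the smallest p-value belonged to B2M, the constant light chain of class I (A_72_P750625). Its HS minus TN difference was -0.17 ± 0.08 (SE, unadjusted p = 0.0393, adjusted p = 0.159). For the brightest SLA-1 probe the difference was 0.02 ± 0.05 (adjusted p = 0.816), for SLA-DRA 0.05 ± 0.11 (adjusted p = 0.785) and for CD74 0.12 ± 0.09 (adjusted p = 0.402). TAP1 (O4777) and TAP2 (A_72_P510149) had differences of 0.06 ± 0.09 and -0.02 ± 0.12. The SD between pigs within a group was 0.21 on that B2M probe, 0.13 on the SLA-1 probe, 0.28 on SLA-DRA and 0.23 on CD74, and each difference was smaller than the SD of its own probe. With the 75th percentile of each array as the scale in place of quantile normalization, 3 B2M probes passed the threshold as lower under HS (A_72_P750625, A_72_P729383 and A_72_P739834, at -0.26, -0.24 and -0.23). With slide as a fixed block, SLA-6 probe A_72_P237292 (a non-classical class I gene) passed as lower under HS, at -0.40 (adjusted p = 0.0482), against -0.31 ± 0.16 (adjusted p = 0.21) without the block.

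Other genes of antigen presentation, from 4 lists made for this work, had 3 of 39 tested genes past the threshold for HS minus TN, or 7.69%, against the 12.2% of all probes. Of 11 tested genes of class I loading and peptide supply, 1 rose under HS, CALR (a chaperone that holds the heavy chain for loading), by 0.17 ± 0.05 (adjusted p = 0.0229). Of 9 tested genes of the class II compartment, 1 rose, CST3 (cystatin C, an inhibitor of lysosomal proteases), by 0.42 ± 0.08 (adjusted p = 0.00155). Within LW pigs CST3 was 1 of the 39 genes called (2.56%, background 1.5%), at 0.59 ± 0.13 (adjusted p = 0.0209). Creole pigs had 0.47 ± 0.14 (adjusted p = 0.194) and F1 pigs 0.19 ± 0.13 (adjusted p = 0.482). Of 17 tested regulators 1 fell, NFYB (a subunit of the factor that binds the Y box of MHC promoters), by 0.20 ± 0.05 on the log2 scale (adjusted p = 0.0105). Neither of the 2 tested genes of the list of other class I like molecules passed the threshold.

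**Figure D2:**
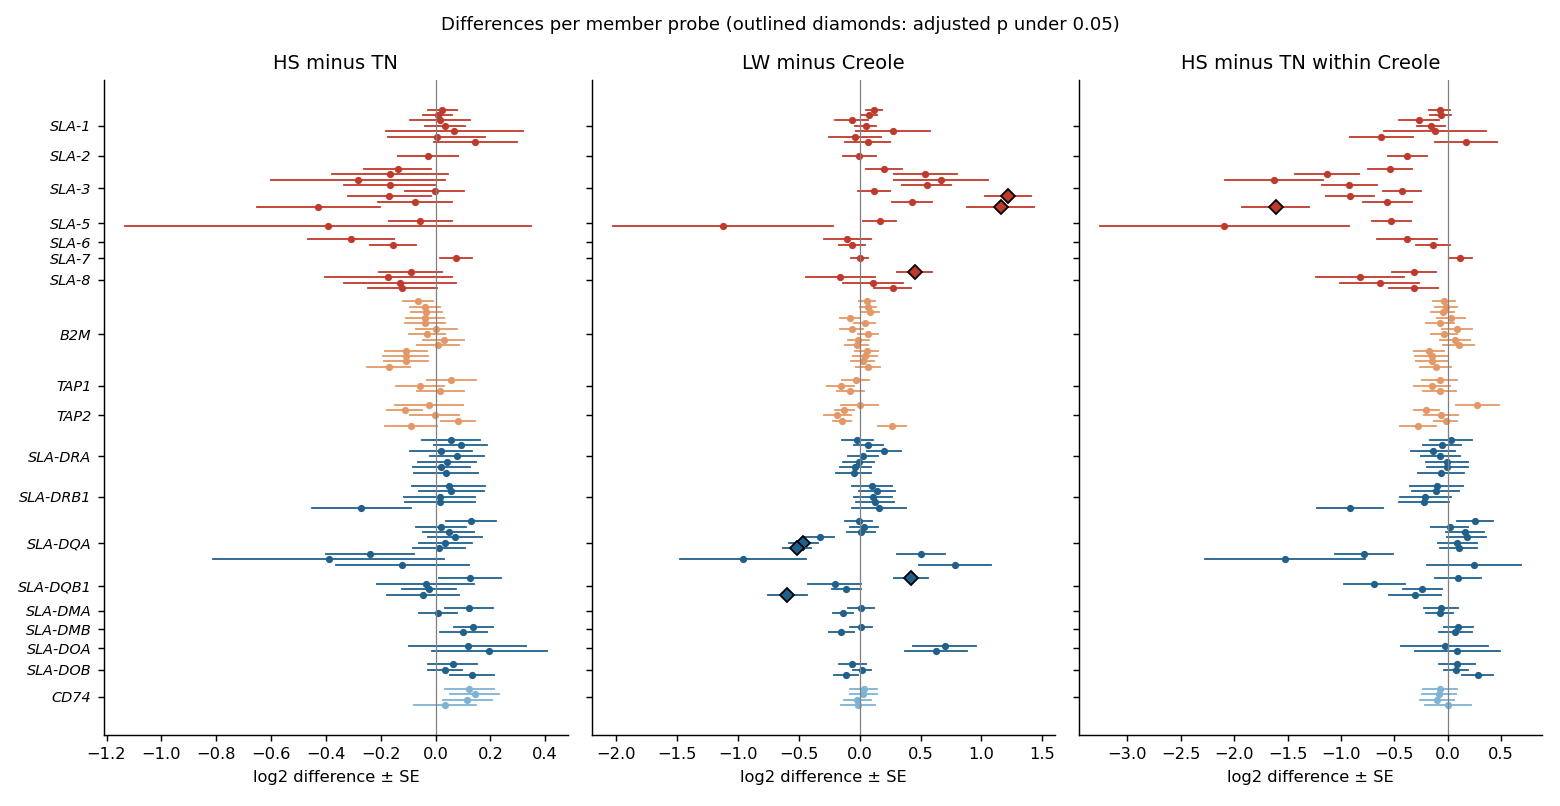
Log2 difference ± SE (horizontal axis) of each of the 84 tested probes, by gene on the vertical axis, for HS minus TN over all breeds, LW minus Creole, and HS minus TN within Creole; outlined diamonds have an adjusted p-value under 0.05. No diamond stands in the first panel, 7 stand in the second and 1, an SLA-3 probe at -1.61, in the third.

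Between the pure breeds, differences appeared on particular probes of SLA-3, SLA-8, SLA-DQA and SLA-DQB1. In the model with breed and temperature, 7 of the 84 probes (8.33%) differed between LW and Creole pigs, against 14.3% of all tested probes. Of these, 4 were higher in LW (background 6.89%) and 3 lower (background 7.43%). At an unadjusted p-value under 0.05 there were 16 member probes, or 19.0%, against 29% of all probes.

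The largest difference was on SLA-3 probe A_72_P625308. Its values in Creole pigs were 14.11, 14.27 and 14.00 under TN and 13.22, 12.80, 12.88, 14.26 and 12.91 under HS. In LW pigs they were 14.69, 14.71, 14.62 and 14.64 under TN and 15.13, 15.13, 14.64, 14.83 and 14.69 under HS. Every LW pig was above every Creole pig on this probe. LW exceeded Creole by 1.22 ± 0.19, a 2.33-fold difference (adjusted p = 0.000278). This estimate pools the temperatures, at which the LW and Creole means were 14.67 and 14.13 under TN and 14.88 and 13.21 under HS. The difference was above 0 on each of the 4 slides that held both breeds, at 0.45 to 1.72. Breed differences per slide, here and below, were not matched for temperature, and some rest on 1 Creole pig. The 1.72 compares 2 LW TN pigs with 1 Creole HS pig.

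On SLA-3 probe A_72_P517623, printed above, LW pigs also had the higher signal. The Creole values ran from 9.80 to 12.65 with a median of 11.67 and the LW values from 12.39 to 13.13 with a median of 12.61. All 5 Creole HS pigs lay below the LW range, and 2 of the 3 Creole TN pigs lay within it. The difference was 1.16 ± 0.27, or 2.23-fold (adjusted p = 0.00696), and it was above 0 on 4 of 4 slides. Under TN the LW and Creole means were 12.70 and 12.54, and under HS they were 12.74 and 10.93. The other 6 SLA-3 probes had LW minus Creole estimates of 0.12 to 0.67, all above 0, none past the threshold.

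SLA-8, a further class I gene, differed on 1 of its 4 probes. A_72_P070231 ran from 11.23 to 12.65 in Creole pigs (median 11.99) and from 12.24 to 12.64 in LW pigs (median 12.40), so the ranges overlapped. The difference was 0.45 ± 0.14, or 1.37-fold (adjusted p = 0.0333), and it lost its call in 9 of 37 alternatives, with an adjusted p-value of up to 0.0763. It was above 0 on 3 of the 4 slides with both breeds and ranged from -0.13 to 1.03 over them. The other 3 SLA-8 probes, printed above, gave -0.16, 0.11 and 0.27 with no call.

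Among class II chains, the DQ molecule carried all the calls between LW and Creole. SLA-DQA, its alpha chain, was lower in LW pigs on the pair of overlapping probes printed above. For A_72_P746609 the Creole values were 11.55 to 12.23 (median 11.86) and the LW values 11.20 to 11.60 (median 11.37). LW was lower by 0.51 ± 0.12 on the log2 scale, or 1.43-fold (adjusted p = 0.00516). On A_72_P750437 the difference was -0.46 ± 0.12, or 1.38-fold (adjusted p = 0.0107), and both probes were below 0 on 4 of 4 slides. These probes share bases and moved together within groups (r = 0.97 over 26 arrays), so they do not count as separate observations. Over all 9 SLA-DQA probes, 4 estimates were above 0 and 5 below, from -0.96 to 0.78 with a median of -0.01. The brightest, A_72_P721473, had means of 14.48 in Creole and 14.46 in LW pigs.

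SLA-DQB1, the beta chain of DQ, differed in opposite directions on its called probes. A_72_P039061 was higher in LW pigs, at 13.81 to 14.55 (median 14.07) against 13.21 to 14.12 (median 13.80) in Creole pigs. Its difference was 0.42 ± 0.14, or 1.34-fold (adjusted p = 0.0412), and it was lost in 13 of 37 alternatives (adjusted p-value up to 0.115). A_72_P631166 was lower in LW pigs, with a median of 9.08 and a highest value of 9.58, against a median of 9.79 and a highest value of 10.14 in Creole pigs, and the ranges overlapped. That difference was -0.60 ± 0.16, or 1.51-fold (adjusted p = 0.0147). It was below 0 on 3 of the 4 slides with both breeds.

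On another pair of SLA-DQA probes the call was gained when 1 pig was left out, and also under array weights. On A_72_P743257, Creole pigs had 12.03, 11.45 and 11.43 under TN and 11.17, 10.46, 11.30, 11.52 and 6.12 under HS, while the 9 LW pigs lay between 9.42 and 10.36. LW minus Creole was -0.96 ± 0.52 with all arrays (adjusted p = 0.221) and -1.59 ± 0.24 without replicate 5 of Creole HS (adjusted p = 0.00022). The same pig had the highest value of its group on A_72_P765361, 8.49 against 5.28 to 6.86 in the other 4 pigs. There the difference was 0.78 ± 0.30 with all arrays (adjusted p = 0.0759) and 1.05 ± 0.23 without that pig (adjusted p = 0.00277). With all arrays weighted by their quality, both probes were called, at -1.24 for A_72_P743257 (adjusted p = 0.0423) and 0.92 for A_72_P765361 (adjusted p = 0.0212).

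The mean of 5 skeletal muscle markers was 11.69 in LW and 12.54 in Creole pigs. It had r = 0.47 with the brightest SLA-1 probe within groups, and its part in these differences was not tested. No B2M, TAP1, TAP2, CD74, SLA-DRA, SLA-DRB1, SLA-DM, SLA-DOA or SLA-DOB probe passed the threshold between LW and Creole. The bright SLA-1 probe gave 0.12 ± 0.07 (adjusted p = 0.233), B2M 0.06 ± 0.07 (adjusted p = 0.583) and SLA-DRA -0.02 ± 0.13 (adjusted p = 0.943). For SLA-DOA, which pairs with SLA-DOB, the brighter probe A_72_P375623, whose gene is in doubt as stated above, gave 0.70 ± 0.26 (adjusted p = 0.0729). With each array left out in turn it gave 0.59 to 0.82 (adjusted p = 0.0367 to 0.139), the lowest of which passed the threshold. Among the regulators, NLRC5, the transactivator of class I genes, was lower in LW pigs by 0.49 ± 0.11 on the log2 scale (adjusted p = 0.00449). It was 1 of 17 tested regulators and the only one of the 39 genes of the 4 lists past the threshold (2.56%, background 14.3%).

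F1 pigs stood with LW on SLA-3. On A_72_P625308 the F1 values were 14.86, 14.50, 14.68 and 14.25 under TN and 14.29, 14.91, 14.75, 14.63 and 14.64 under HS. They ran from 14.25 to 14.91 with a median of 14.64, against a median of 14.69 in LW and 13.61 in Creole pigs. F1 exceeded Creole by 1.05 ± 0.19, or 2.06-fold (adjusted p = 0.00898). On A_72_P517623 the F1 values ran from 12.38 to 13.27 (median 12.97), and F1 exceeded Creole by 1.32 ± 0.27, or 2.50-fold (adjusted p = 0.0329). These estimates pool the temperatures, and the gap between the means was wider under HS, while the interaction passed no adjusted threshold. On A_72_P517623 the F1 and Creole means were 12.82 and 12.54 under TN and 12.93 and 10.93 under HS. On A_72_P625308 they were 14.57 and 14.13 under TN and 14.64 and 13.21 under HS.

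These were the only 2 members called between F1 and Creole, 2.38% of the 84 against 0.262% of all probes in either direction and 0.13% higher in F1. As both belong to SLA-3 and had r = 0.71 within groups, they do not count as separate observations. Both differences were above 0 on 5 of 5 slides, some of which held only 1 Creole pig, with temperature not matched. The call on A_72_P517623 was lost in 10 of 37 alternatives (adjusted p-value up to 0.102), and the count fell to 1 when any one of 7 arrays was left out, namely replicates 1 and 2 of Creole HS, replicate 1 of F1 TN and replicates 2 to 5 of F1 HS. It rose to 4 without replicate 2 of Creole TN. At an unadjusted p-value under 0.05 there were 15 member probes (17.9%, background 9.75%), 12 of them among the 25 class I heavy chain probes. Class I probes can read near-identical sequences, so this share does not count separate observations. SLA-DQA probe A_72_P763148 was just outside the threshold with 0.85 (adjusted p = 0.0638). It was called in 7 of 37 alternatives, among them 75th percentile scaling (adjusted p = 0.039), array weights (0.0327) and slide as a random block (0.0493), each of which gave 3 called members.

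Against LW, F1 pigs differed on 1 member probe (1.19%, background 4.22%), higher in F1 (background 2.46% higher and 1.77% lower). This was TAP2 probe A_72_P275849, for a subunit of the peptide pump. F1 values ran from 8.45 to 8.79 (median 8.72) and LW values from 8.13 to 8.67 (median 8.44), so the ranges overlapped. The difference was 0.30 ± 0.07, or 1.23-fold (adjusted p = 0.0259), was above 0 on 4 of 4 slides, and was lost in 4 of 37 alternatives (adjusted p-value up to 0.0674). The count was 0 without replicate 1 or 3 of F1 TN or without replicate 2 of LW HS. Over the 5 tested TAP2 probes, 3 estimates were above 0 and 2 below, from -0.24 to 0.34. The brightest, A_72_P510149, had the lower mean in F1 pigs, at 10.82 against 11.06 in LW pigs. NLRC5 was higher in F1 than in LW by 0.37 ± 0.10 (adjusted p = 0.0421). It was the only one of the 39 tested genes of the 4 lists past the threshold (2.56%, background 4.22%).

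Measured against the mean of the parental breeds, no member probe of the F1 pigs passed the threshold (background 0.00671%), and the lowest adjusted p-value was 0.208. At an unadjusted p-value under 0.05 there were 18 members, or 21.4%, against 8.69% of all probes. Of the 18 estimates, 16 were above 0. They included 6 of the 8 SLA-3 probes, at 0.30 to 0.75, and 3 of the 4 SLA-8 probes, at 0.32 to 0.59. The other 2, on SLA-6 (A_72_P237292) and SLA-DRB1 (A_72_P269019), were -0.42 and -0.42. Probes of a gene moved together within groups (median r of 0.70 for SLA-3 and 0.85 for SLA-8). The 18 members are therefore not separate observations.

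Heat was then examined within each breed. In Creole pigs 1 member was called, SLA-3 probe A_72_P517623, lower under HS (1.19% of 84, background 0.0716% in either direction, 0.0626% lower and 0.00895% higher). The Creole TN pigs had 12.33, 12.64 and 12.65, with a mean of 12.54 ± 0.18. The Creole HS pigs had 11.24, 10.77, 10.75, 12.10 and 9.80, with a mean of 10.93 ± 0.84. All 5 HS pigs lay below the 3 TN pigs, and replicate 4 was the closest to them. The difference was -1.61 ± 0.31, or 3.05-fold (adjusted p = 0.0494), and it was below 0 on both slides that held the 2 groups, at -1.56 and -1.23.

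That call was at the edge of the threshold. It was lost in 23 of 36 alternatives, including 19 of the 26 fits without 1 array, with adjusted p-values of up to 0.497, while the difference stayed between -1.90 and -1.33. In F1 pigs the same probe had means of 12.82 ± 0.31 under TN (n = 4) and 12.93 ± 0.35 under HS (n = 5), and in LW pigs 12.70 ± 0.35 (n = 4) and 12.74 ± 0.22 (n = 5).

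The rest of SLA-3 had estimates of the same sign in Creole pigs. All 8 probes were below 0, from -1.63 to -0.43, and A_72_P517623 alone was called. On A_72_P515992 the Creole TN pigs had 16.12, 16.21 and 15.97, and the Creole HS pigs 14.32, 13.90, 14.18, 16.34 and 13.64. Its difference of -1.63 ± 0.46 had an unadjusted p-value of 0.0016 and an adjusted one of 0.179. On this probe 4 of the 5 HS pigs were over 1 unit below the TN pigs, and replicate 4 lay above them. Without replicate 4 of Creole HS, 5 SLA-3 probes were called as lower under HS: A_72_P517623, A_72_P625308, A_72_P609764, A_72_P682906 and A_72_P515992.

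Over all 25 class I heavy chain probes, 23 had a difference below 0 in Creole pigs, with a median of -0.43. Of these 25, 10 had an unadjusted p-value under 0.05. Over the 84 members this was 13 probes, or 15.5%, against 11.1% of all probes, and the median over members was -0.08 against 0.00 over all probes. Many of these probes read near-identical sequences, so their shared sign is not a set of separate observations. In F1 and LW pigs no member was called (background 0.421% and 1.5%), with 5 and 4 members at an unadjusted p-value under 0.05 (backgrounds 16% and 16.7%). The lowest adjusted p-values there were 0.242 and 0.214. Of the 4 LW members, 3 were CD74 probes and the other was TAP2 (A_72_P275849). On CD74 probe A_72_P395573 the LW TN pigs had 11.96, 11.92, 11.94 and 11.92 and the LW HS pigs 12.36, 12.52, 11.98, 12.36 and 12.08, so that every HS pig was above every TN pig. The differences of these CD74 probes were 0.31 to 0.35 (adjusted p = 0.214 to 0.281), and the fourth CD74 probe, O12719, had 0.04 ± 0.20.

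**Figure D3:**
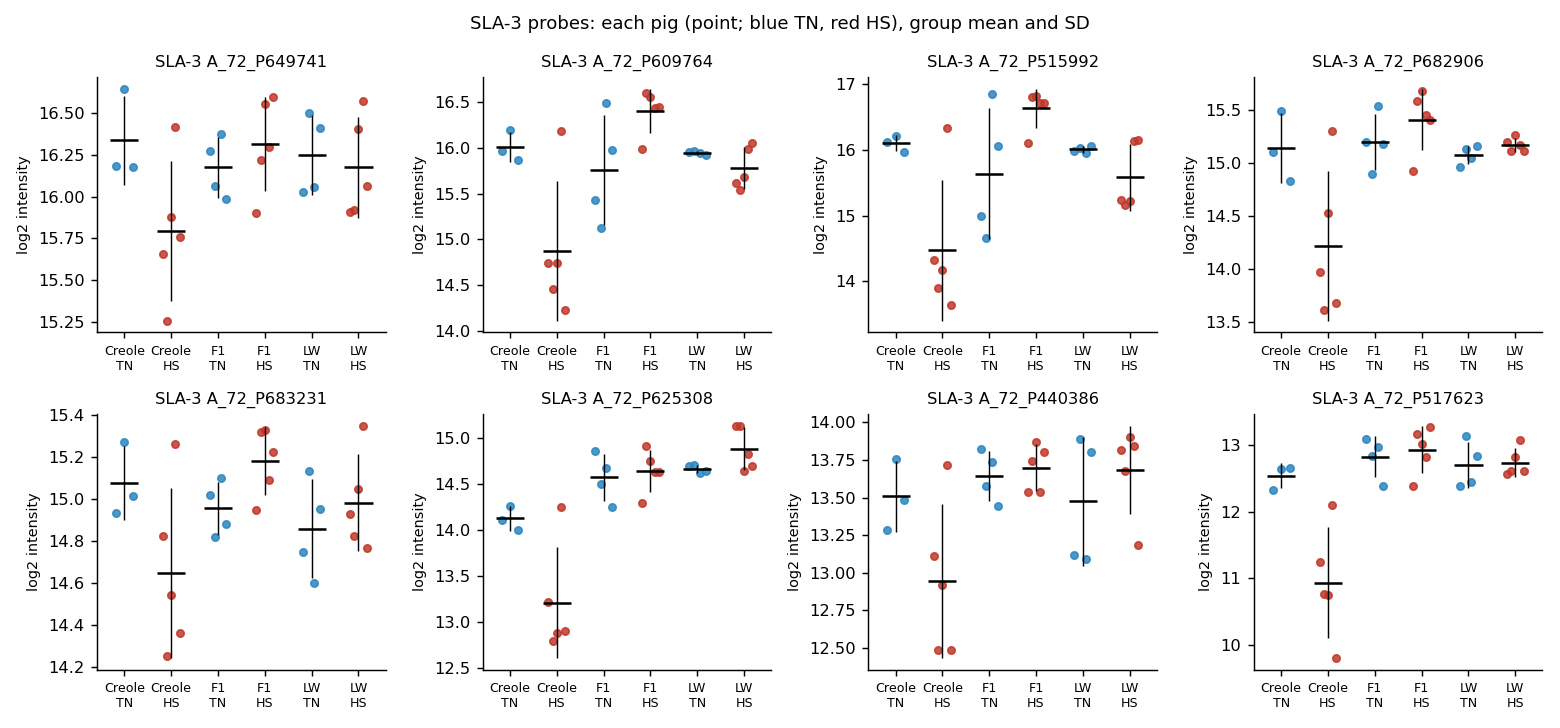
Log2 normalized intensity of the 8 SLA-3 probes in each pig (points, blue for TN and red for HS), with group mean and SD in black, for the 6 breed by temperature groups. On 7 of the 8 panels 4 of the 5 Creole HS pigs lie below all Creole TN pigs and replicate 4, the high red point, does not, while on A_72_P517623 all 5 do; on A_72_P625308 every LW pig lies above every Creole pig.

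Whether the response differed between breeds was tested by the breed by temperature interaction, and no member passed (adjusted p = 0.897 at the lowest, background 0.00224%). At an unadjusted p-value under 0.05 there were 11 members, or 13.1%, against 5.23% of all probes, and 9 of the 11 were class I heavy chains. Such probes can read near-identical sequences, so the 11 are not separate observations. The lowest unadjusted p-values were those of SLA-3 probes A_72_P517623 (0.000658), A_72_P609764 (0.000954), A_72_P515992 (0.00123) and A_72_P625308 (0.0023). Without replicate 4 of Creole HS the interaction was called on 2 SLA-3 probes, A_72_P609764 (adjusted p = 0.0141) and A_72_P625308 (adjusted p = 0.00988). A difference in response between the breeds was thus called only when that pig was left out.

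Pigs of the same group differed widely on part of the class I and class II chain probes. The SD within groups had a median of 0.26 over the 84 members and 0.18 over all tested probes. Of the 84 members, 18 were above 0.373, the 90th percentile of all probes. These were 11 of the 25 class I heavy chain probes and 7 of the 34 class II chain probes, with 0 of the 21 probes of B2M, TAP1 and TAP2 and 0 of the 4 CD74 probes. The 7 include both SLA-DOA probes, whose gene is in doubt. The median SD was 0.205 for the class I partners and 0.226 for CD74, both above that of all probes. Over all 26 pigs, differences between the groups included, 16 members, or 19.0%, ranged over more than 2 log2 units, against 6.56% of all tested probes.

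**Figure D4:**
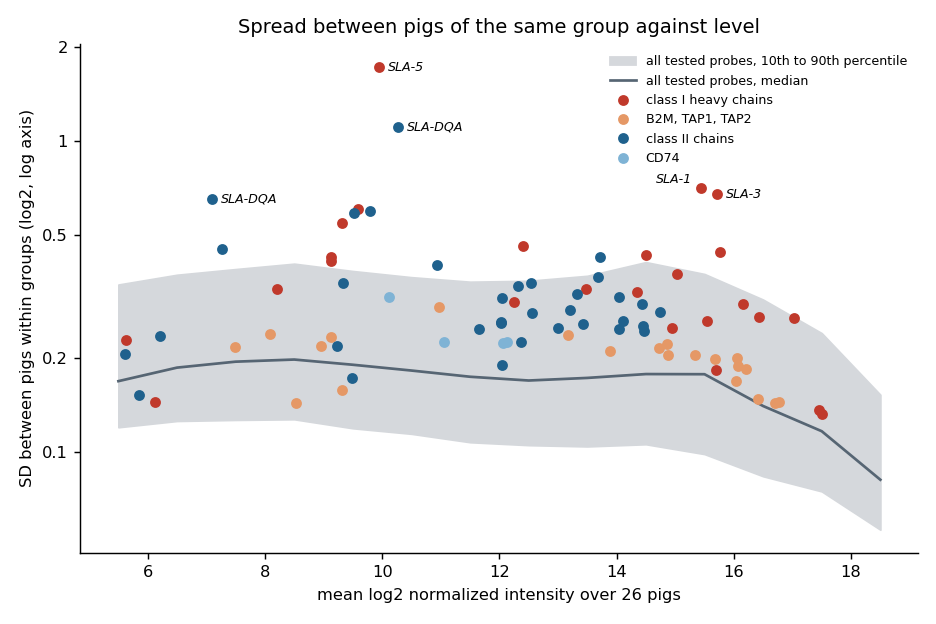
SD between pigs within groups (log2 units, log axis) against mean log2 normalized intensity for the 84 tested probes, coloured by class, with the median and the 10th to 90th percentile of all tested probes in grey. SLA-5 (1.72) and SLA-DQA (1.11, or 0.49 without replicate 5 of Creole HS) stand highest, while B2M lies between 0.14 and 0.22.

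The widest spread was on SLA-5 probe A_72_P414498, with an SD of 1.72. Creole TN pigs had 10.56, 12.22 and 11.66, and Creole HS pigs 9.24, 8.77, 10.20, 11.08 and 7.65. F1 TN pigs had 6.68, 6.92, 12.22 and 11.09, and F1 HS pigs 10.83, 10.93, 12.14, 12.03 and 12.55. LW TN pigs had 8.54, 11.66, 8.71 and 11.44, and LW HS pigs 6.72, 6.61, 7.81, 11.49 and 8.71. High and low pigs occurred in each breed, and in F1 TN 2 pigs lay over 4 units below the other 2.

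The second SLA-5 probe, A_72_P441848, did not show these gaps. It ran from 14.76 to 15.99 over all pigs, with an SD of 0.26. No SLA-5 difference passed the adjusted threshold on either probe, but both had an unadjusted p-value under 0.05 for the interaction (0.0108 for A_72_P414498 and 0.0183 for A_72_P441848, adjusted p = 0.897). HS minus TN on A_72_P414498 was -2.09 ± 1.17 in Creole (unadjusted p = 0.0857), 2.47 ± 1.07 in F1 (unadjusted p = 0.0303, adjusted p = 0.256) and -1.82 ± 1.07 in LW pigs (unadjusted p = 0.102). On A_72_P441848 it was -0.53 ± 0.18 in Creole pigs (unadjusted p = 0.00811, adjusted p = 0.276), 0.15 ± 0.17 in F1 and 0.14 ± 0.17 in LW pigs.

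Probes of one gene could thus disagree about the same pigs. Replicate 5 of Creole HS was the lowest pig on SLA-DQA probe A_72_P743257 and the highest on A_72_P765361, and over the 26 arrays these probes had r = -0.70 within groups. Without that pig, an alternative chosen after seeing the data, r was -0.29 over 25 arrays. A_72_P763148, which differs from A_72_P743257 at the 5 bases in capitals above, read that pig at 9.64, against 9.50 to 10.91 in the other Creole HS pigs. The correlation of this printed pair was 0.50 with and without that pig.

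Among members, 27 pairs of probes shared 25 bases or more with at most 30% differing. The 9 pairs identical over the shared stretch only had correlations within groups of 0.45 to 0.98 (median 0.92). The pair at 0.45 shared 31 bases. The 18 pairs with differences had -0.13 to 0.99 (median 0.91). The printed SLA-8 pair with 1 difference had r = 0.98, the SLA-1 and SLA-3 pair with 4 had 0.81, and the SLA-5 and SLA-8 pair with 13 had 0.31. These are descriptions over 26 arrays, on which the pairs also share array and depth of signal.

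**Figure D5:**
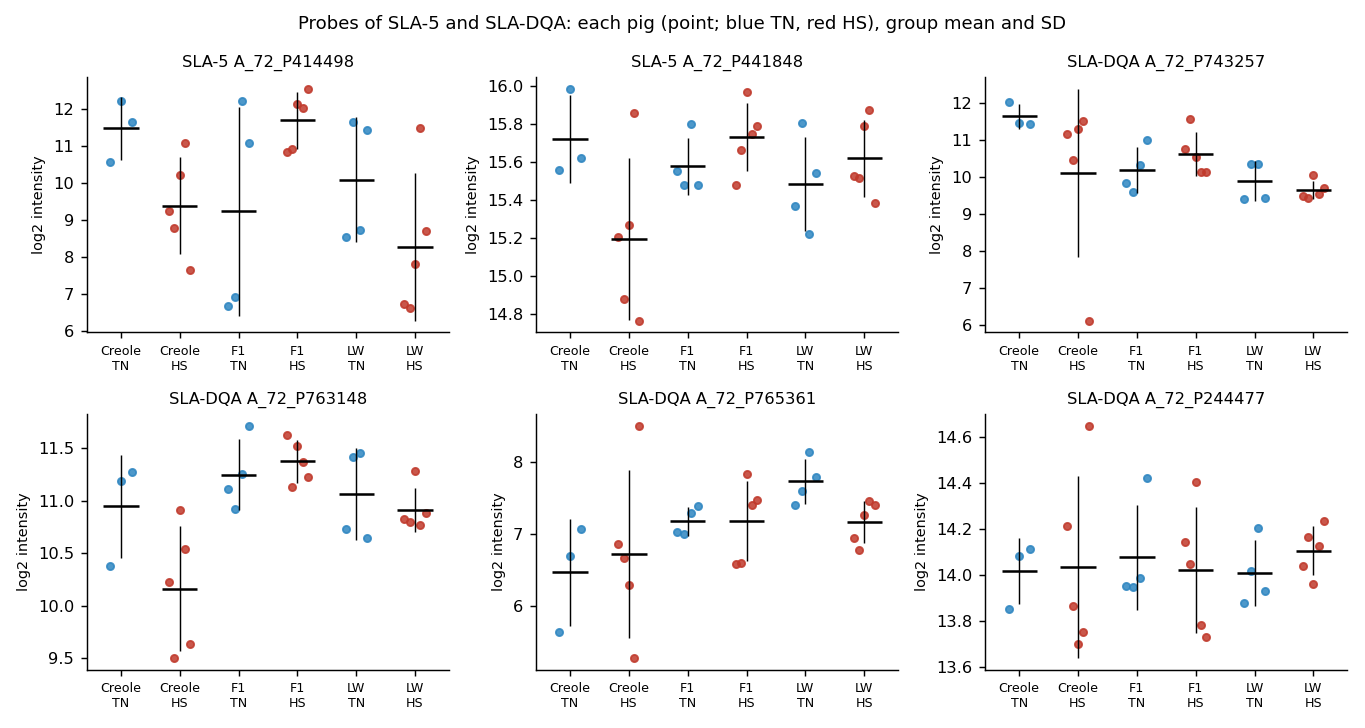
Log2 normalized intensity of 2 SLA-5 and 4 SLA-DQA probes in each pig (points, blue for TN and red for HS), with group mean and SD in black, for the 6 breed by temperature groups. SLA-5 A_72_P414498 splits pigs of one group by up to several log2 units while A_72_P441848 does not, and the lowest Creole HS pig on SLA-DQA A_72_P743257 (6.12) is the highest on A_72_P765361 (8.49).

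Members that are known to work together varied together between pigs to different degrees. Within groups, the 13 B2M probes had a median pairwise r of 0.85, the 4 CD74 probes 0.82, the SLA-DRA probes 0.95 and the SLA-3 probes 0.70. SLA-DQA had 0.31, ranging from -0.70, the value that 1 pig moved, to 0.97. Class I heavy chains had a median r of 0.52 with each other and 0.45 with B2M, and class II chains 0.46 with each other and 0.63 with CD74. Class I with class II had a median r of only 0.15. All of these rest on the same 26 arrays.

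Outside the family, the 5 genes whose deviations from the group means ran closest to those of the brightest SLA-1 probe over the 26 arrays, of 9949 compared, were TPD52 (r = 0.78), HCLS1 (0.76), NGRN (0.72), TRAPPC6B (0.70) and IPO11 (0.70). Those closest to SLA-DRA (A_72_P640825) were HELQ (0.83), ELK4 (0.81), RNF165 (0.78), TMEM25 (0.77) and PTPN18 (0.75). None belongs to the pathway lists.

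In whole tissue, fewer cells of a type and less RNA per cell cannot be told apart, so markers of the cell types that SCAT can hold were read on the same arrays. All 7 adipocyte markers were tested, and their mean level was 15.73 to 16.17 in Creole, 15.56 to 15.88 in F1 and 15.49 to 15.77 in LW pigs. Of 10 macrophage markers 9 were tested, with a mean of 10.25 in Creole TN and 10.74 in Creole HS, 10.69 in F1 TN and 10.51 in F1 HS, and 10.47 in LW TN and 10.64 in LW HS pigs. None of the macrophage markers passed the threshold in any comparison. Their HS minus TN estimates within Creole, where the SLA-3 probe was called, ran from 0.02 (CD68) to 0.73 (MRC1). The median of these estimates was 0.59 in Creole, -0.20 in F1 and 0.18 in LW pigs. The correlation of the macrophage mean was 0.31 with the brightest SLA-1 probe and 0.03 with the brightest SLA-DRA probe. Marker means were set against these single probes and the brightest CD74 probe, not against whole classes.

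Among the class II bearing cells, 3 of 8 dendritic cell and 5 of 8 B cell markers were tested, at means of 7.58 to 8.18 and 6.46 to 7.04 over the arrays. Of the marker means, the endothelial mean moved most with the brightest SLA-DRA probe (r = 0.60), and it had r = 0.45 with the brightest CD74 probe. It was 12.48 in Creole TN and 12.29 in Creole HS, 12.61 in F1 TN and 12.53 in F1 HS, and 12.49 in LW TN and 12.62 in LW HS pigs. Over both temperatures it was 12.36 in Creole, 12.57 in F1 and 12.56 in LW pigs. The dendritic cell mean was 7.77 in LW TN and 7.97 in LW HS pigs. The mean of 5 tested skeletal muscle markers ranged widely, from 9.91 to 14.76 over the arrays, with r = 0.47 for the brightest SLA-1 probe. It was 12.58 in Creole TN and 12.51 in Creole HS pigs, 12.18 in F1 TN and 11.95 in F1 HS pigs, and 10.84 in LW TN and 12.37 in LW HS pigs. Over both temperatures it was 12.54 in Creole and 11.69 in LW pigs, with a median difference over its genes of -0.93 for LW minus Creole and of 1.77 for HS minus TN within LW, although none of the 5 genes passed the threshold.

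Over all 9 marker lists, 4 of 51 tested genes passed the threshold for HS minus TN (7.84%, background 12.2%) and 3 of 51 for LW minus Creole (5.88%, background 14.3%). Under HS, ADIPOQ (adiponectin) was higher by 0.16 ± 0.05 (adjusted p = 0.0384), CDH5 (an endothelial cadherin) was lower by 0.23 ± 0.07 (adjusted p = 0.0254), and HBB and EPB42 of the 5 tested red blood cell markers were lower. Between LW and Creole pigs, LEP (leptin) was lower in LW, with a difference of -1.23 ± 0.41 (adjusted p = 0.0438). KDR (an endothelial receptor) and CD79B (part of the B cell receptor) were higher in LW, by 0.87 ± 0.16 (adjusted p = 0.00136) and 0.42 ± 0.12 (adjusted p = 0.0204). No marker of any list was called between F1 and either parental breed, in the interaction, or within a breed. None of the 7 tested T cell markers and none of the 3 tested keratinocyte markers passed in any comparison. The part of these cells in the differences above was not tested.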

How the data were processed

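SCAT RNA of 26 pigs was hybridised to 60K porcine Agilent arrays. The authors deposited, per array, the Feature Extraction 10.10.1.1 scanner output, whose spot intensity is a linear value per the file headers, and a matrix of log2 values that the authors made by quantile normalization. Here the median spot intensity of each array was quantile normalized without background correction and taken to log2. Non-uniform spots were left out, spots of a probe were averaged, and a probe was kept if 8 or more arrays had it well above background (44702 of 60305). Differences were tested with limma 3.58.1 (lmFit, eBayes with trend, R 4.3.3), with breed and temperature as terms, or with the 6 groups for the tests within a breed and the interaction. Benjamini-Hochberg adjustment ran over every probe tested, and calls needed an adjusted p-value under 0.05. The pigs of a group are separate animals. The 5 slides held mixed groups and had a consensus correlation of 0.0434. The scripts were tested on simulated data.

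Members were found by gene name, description or accession, through the RefSeq gene table of Sscrofa11.1, which served for names and gene order only. The study's methods name Sscrofa11.1 for an update of the probe annotation. Coordinates are not used here. Members and lists were chosen with earlier results of these data known. Named were the brightest probe of each gene and the member probes past the threshold (for LW minus Creole the 10 and for the other breed comparisons the 5 with the largest difference), and other probes were named after their values were seen. Every correlation is Pearson's r of deviations from group means, over the 26 arrays except where a pig is stated to be left out. Alternatives were normexp background correction, 75th percentile scaling, the deposited log2 matrix (83 of the members, correlation of at least 0.999997 with the values used here), other filters, slide as fixed or random block, array weights, no trend, fewer terms or breeds, and each array left out in turn.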

Additional observations from a re-analysis of the deposited data

Results flagged for a closer look

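Over 25 named probes and 125 combinations of probe and group, 7 had a single pig far from the others of its group by Dixon's criterion, which chance alone would give in about 1 of 20 combinations. Of the 7, 4 were replicate 4 of F1 TN, and all 4 were kept as class II probes, although the gene of the SLA-DOA probe is in doubt. The array of this pig had the highest share of spots well above background, 76.6%, and the part of this was not tested. This pig had 14.8 on SLA-DQA A_72_P721473 against 14.36 to 14.38 in the other 3. It had 14.66 on SLA-DQB1 A_72_P039061 against 13.9 to 14, and 9.77 on SLA-DQB1 A_72_P631166 against 9.131 to 9.217. On SLA-DOA A_72_P375623 it had 10.49 against 8.999 to 9.202.

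The other 3 concerned different pigs. Replicate 2 of F1 TN had 11.88 on SLA-DMA A_72_P025111 against 12.39 to 12.48. Replicate 3 of LW TN had 6.489 on the dim SLA-DOB probe A_72_P300459 against 6.12 to 6.156. Replicate 3 of LW HS had 12.77 on SLA-DRB1 A_72_P545751 against 13.77 to 14.17. All values are log2 normalized intensities.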

How the results depend on the processing

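No paired analysis was possible because the replicate numbers were given in accession order and name no shared animal, litter or day. Under 75th percentile scaling, HS minus TN had 3 called members (all B2M, lower) and F1 minus LW 2, and this scaling moved the median difference of all probes for HS minus TN from 0.00 to 0.02 and that of the members from 0.01 to -0.08. With slide as a fixed block, HS minus TN had 1 (SLA-6 A_72_P237292, -0.40), F1 minus Creole 1, F1 minus LW 0 and Creole HS minus TN 0. Array weights gave 3 for F1 minus LW and 0 for Creole HS minus TN, which was also 0 with no filter on dim probes and with the Creole arrays alone. With only the breeds compared, F1 minus Creole had 1 and F1 minus LW 4. Leaving out 1 array gave 0 to 0 called members for HS minus TN, 5 to 10 for LW minus Creole, 1 to 4 for F1 minus Creole, 0 to 2 for F1 minus LW, 0 to 0 for F1 against the parental mean, 0 to 2 for the interaction, 0 to 5 for Creole HS minus TN, and 0 to 0 within F1 and within LW. F1 minus LW had 2 without replicate 1 or 5 of F1 HS, 1 or 3 of LW HS, 2 or 4 of F1 TN or 5 of Creole HS. The differences of SLA-3 A_72_P625308 (LW or F1 minus Creole), SLA-3 A_72_P517623 (LW minus Creole), SLA-DQA A_72_P746609 and A_72_P750437 and SLA-DQB1 A_72_P631166 held their call in 37 of 37 alternatives. No named difference reversed its sign where it was called. The cause of the changes was not tested.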
